A study of Mus musculus with 6 samples.

Results

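The genes of cholesterol synthesis, uptake and export were compared between cells of the prepubertal mouse testis that carry the surface protein Thy1 and cells that do not. The set holds 32 genes given by name: 19 of synthesis, 5 of the SREBP control system and 8 of transport. Of these, 30 had a probe set assigned to them alone, out of 18193 genes measured on the array. Acat2 and Soat1 had none and were not analysed here. Where a gene had several probe sets, that with the highest mean log2 value was used.

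Testis cells of prepubertal mice were sorted magnetically into a Thy1-positive fraction, enriched in spermatogonial stem cells by transplantation assay per the series design, and a Thy1-negative fraction depleted of them. Each fraction was hybridised on 3 Affymetrix arrays, called N1, N2 and N3 (Thy1-negative replicates 1 to 3) and P1, P2 and P3 (Thy1-positive replicates 1 to 3). The replicates of a fraction came from separate donor preparations per the series design, which does not say whether a preparation gave both fractions, and the labels give neither strain nor exact age, nor any genetic change or treatment. Levels are log2(intensity + 1) of 1 probe set, so they compare arrays and not genes, and a difference is the Thy1-positive mean minus the Thy1-negative mean.

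Cholesterol is built from acetyl-CoA through the mevalonate pathway, which makes isoprenoid units, and then through squalene and lanosterol to a series of sterols that end in cholesterol. The transcription factors of the SREBP family switch on most of these enzymes. SCAP carries SREBP from the endoplasmic reticulum to the Golgi for cleavage when sterols are low, and INSIG proteins hold the complex back when sterols are high. In the testis, cholesterol serves the membranes of dividing germ cells and is the precursor of the androgens made by Leydig cells, while Sertoli cells take up lipid through the receptor SCARB1.

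The promoters of 7 members are shown because these genes carry the main contrasts described here. Mvk, Idi1 and Lbr were higher in the Thy1-positive fraction, whereas Hmgcs1, Tm7sf2, Ebp and Insig2 were lower. Each stretch is the 200 bases before the annotated start, from RefSeq (GRCm38.p6), read 5′ to 3′ on the strand of the gene. Their positions are chr13:119690151-119690350 (plus strand) for Hmgcs1, chr5:114444069-114444268 (plus) for Mvk, chr13:8885406-8885605 (plus) for Idi1 and chr1:181842402-181842601 (minus) for Lbr. Those of the others are chr19:6067851-6068050 (minus) for Tm7sf2, chrX:8193513-8193712 (minus) for Ebp and chr1:121332590-121332789 (minus) for Insig2, the most upstream of its 3 annotated starts. Capitals mark the letters TCACNCCAC, a form of the sterol regulatory element bound by SREBP, and ATTGG or its reverse complement CCAAT, the site of the SREBP partner NF-Y.
Hmgcs1: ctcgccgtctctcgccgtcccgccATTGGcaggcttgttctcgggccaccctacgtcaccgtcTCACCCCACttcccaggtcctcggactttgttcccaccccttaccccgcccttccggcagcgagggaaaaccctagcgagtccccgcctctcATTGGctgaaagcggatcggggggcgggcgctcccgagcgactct
Mvk: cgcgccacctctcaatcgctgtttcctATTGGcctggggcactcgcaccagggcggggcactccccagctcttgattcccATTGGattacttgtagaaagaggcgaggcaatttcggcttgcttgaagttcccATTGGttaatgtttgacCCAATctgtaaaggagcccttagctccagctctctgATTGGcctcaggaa
Idi1: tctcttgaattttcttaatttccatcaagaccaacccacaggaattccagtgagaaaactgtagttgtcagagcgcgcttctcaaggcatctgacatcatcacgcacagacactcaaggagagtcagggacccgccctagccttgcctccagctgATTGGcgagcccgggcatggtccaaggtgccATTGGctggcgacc
Lbr: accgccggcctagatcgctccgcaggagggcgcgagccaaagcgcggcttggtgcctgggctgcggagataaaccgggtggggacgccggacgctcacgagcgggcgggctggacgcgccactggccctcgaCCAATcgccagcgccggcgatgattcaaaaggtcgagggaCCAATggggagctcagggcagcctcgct
Tm7sf2: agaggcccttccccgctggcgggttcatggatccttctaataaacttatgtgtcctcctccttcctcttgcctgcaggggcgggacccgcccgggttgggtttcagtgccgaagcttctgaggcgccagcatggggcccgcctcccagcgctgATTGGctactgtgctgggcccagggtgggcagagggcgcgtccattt
Ebp: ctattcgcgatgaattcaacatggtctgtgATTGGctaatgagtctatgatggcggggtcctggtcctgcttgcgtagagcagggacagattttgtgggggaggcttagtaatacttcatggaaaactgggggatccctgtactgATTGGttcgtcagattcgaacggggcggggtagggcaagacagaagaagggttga
Insig2: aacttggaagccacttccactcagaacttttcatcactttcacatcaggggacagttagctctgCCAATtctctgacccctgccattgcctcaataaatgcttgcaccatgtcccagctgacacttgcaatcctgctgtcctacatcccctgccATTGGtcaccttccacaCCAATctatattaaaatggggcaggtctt

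The letters were searched on both strands in windows from 250 bases before to 50 after the start, which were present for 25 of the 32 genes (35 windows). No marked matches overlapped in the printed stretches. TCACNCCAC was found in 1 member gene, Hmgcs1, as TCACCCCAC 137 bases before the start. That is 1 of the 35 windows, against 1.24% of all 32851 windows. ATTGG or CCAAT was found in 21 of the 25 genes and 22 of their 35 windows, against 37.4% of all windows. The printed Mvk stretch holds 5 such matches and that of Tm7sf2 holds 1, so genes that rose and genes that fell both carry the letters. CACGTG, the E-box letters, occurred in 6 of the genes (Hsd17b7, Sc5d, Dhcr7, Insig1, Scap and Abca1) and 7 of their 35 windows, against 7.15% of all windows. Overlapping Scap windows that hold the same site are counted apart. A match is a description of the letters and shows no binding.

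Of the 30 measured members, 12 rose, 6 fell and 12 did not pass the test (limma, Benjamini-Hochberg adjustment over 18193 genes, adjusted p below 0.05). Among all genes the same test called 18.5% higher and 14.4% lower, 33.0% in either direction. At 2-fold or more, 5 members were higher, against 8.82% of all genes, and 4 were lower, against 9.13%. The values of the 2 fractions did not overlap for 24 of the 30, against 51.4% of all genes. The median difference was 0.41 over the members and 0.01 over all genes. All genes include dim ones, whereas every measured member lay above the median intensity. In a fit of the 11255 genes above that median, 3771 were higher and 2876 lower, with a median difference of 0.14. That fit called 10 synthesis genes higher and 3 lower, 0 and 2 in SREBP control, and 3 and 1 in transport. The share not overlapping among those 11255 genes was not computed. No member lay at low signal, that is, below the 25th percentile of the arrays, in either fraction. The arrays hold mixed cells, and fewer cells of a type and less RNA per cell cannot be told apart.

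Thy1 itself had a mean of 2.48 ± 0.23 (SD, n = 3) in the negative and 6.20 ± 0.27 (SD, n = 3) in the positive fraction, the former at low signal. Markers of undifferentiated spermatogonia were higher in the Thy1-positive fraction for 10 of 12 genes, with a summed intensity of 20110 to 22740 against 3252 to 6601. General germ cell markers were higher for 5 of 10, with sums of 12680, 35300 and 17520 on N1, N2 and N3 and 50660 to 53950 on the positive arrays. Macrophage markers were higher for 19 of 20, with sums of 307 to 342 against 18680 to 25640. Their differences ran from 0.01 to 7.99, with a median of 6.18. C1qa, a complement subunit of macrophages near the top of that range, went from 2.29 ± 0.00, at low signal, to 10.28 ± 0.24 (SD, n = 3). Sertoli cell markers were lower for 16 of 17, with sums of 138600 to 173100 against 11660 to 35870, the highest positive value being that of P2. Leydig markers were lower for 3 of 5 (5159 to 10400 against 2380 to 3767) and peritubular myoid markers for 5 of 7 (19350 to 20090 against 4156 to 5680). T lymphocyte markers were higher for 3 of 5 (40.8 to 56.5 against 405 to 433), erythroid markers lower for 2 of 4 (98.0 to 224 against 21.3 to 29.0), and endothelial markers were higher for 1 and lower for 1 of 7 (92.2 to 172 against 96.4 to 170). The 18S ribosomal RNA control read 336 to 29180 on the negative and 33.7 to 187 on the positive arrays. These sums come from the same arrays as every difference given here, and their part in the results was not tested.

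**Figure D1:**
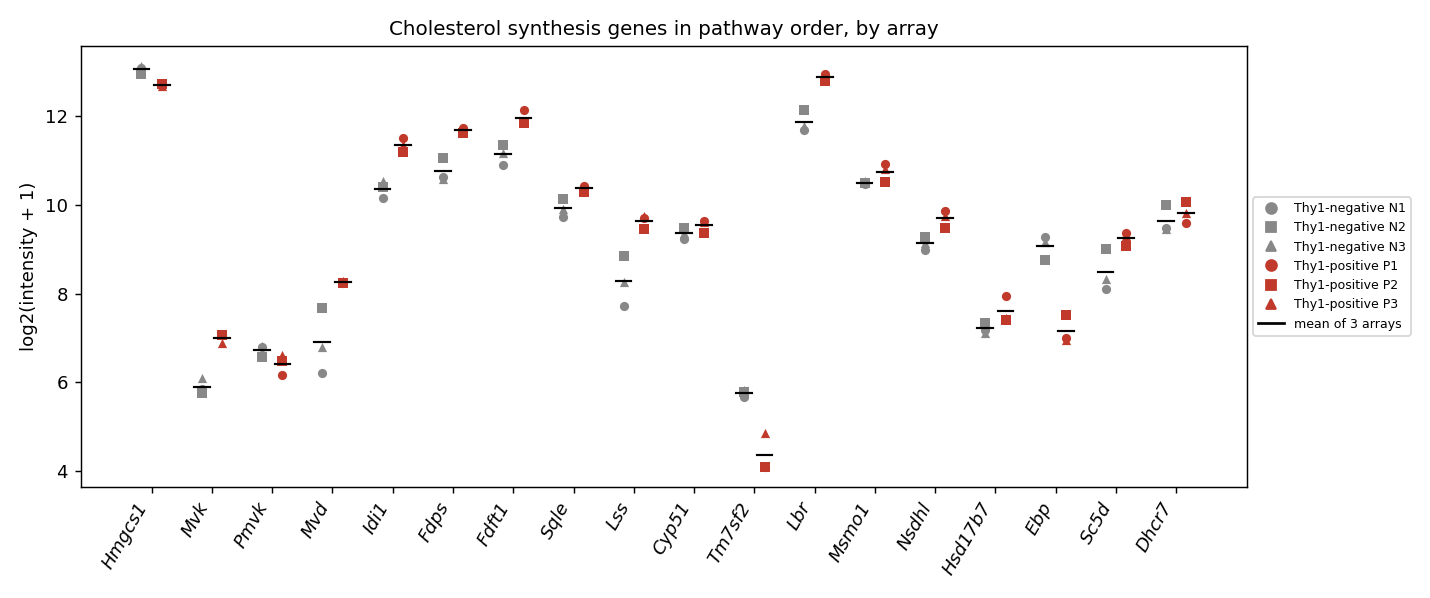
Levels of the 18 measured synthesis genes in pathway order, as log2(intensity + 1); grey symbols are the 3 Thy1-negative and red symbols the 3 Thy1-positive arrays, with a bar at each mean. All red points lie above the grey ones for Mvk, Mvd, Idi1, Fdps, Fdft1, Sqle, Lss, Lbr, Nsdhl, Hsd17b7 and Sc5d. They lie below them for Hmgcs1, Tm7sf2 and Ebp.

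Synthesis genes differed in both directions. Of 18 measured, 8 rose, 3 fell and 7 did not pass the test, with a median difference of 0.51 and no overlap between the fractions for 14. Among all genes 18.5% rose, 14.4% fell and 51.4% did not overlap. These shares include dim genes, whereas all 18 lay above the median intensity. In the fit of the 11255 genes above that median, 3771 were higher and 2876 lower, with 10 and 3 of the 18. The share of those 11255 that did not overlap was not computed. In the fit over all genes, Mvk, Idi1 and Fdps of the isoprenoid steps rose, where Pmvk and Mvd were not called. Fdft1 and Sqle of the squalene steps, and later Lbr and Nsdhl, also rose. Lss, of the lanosterol step, rose on the probe set used and was called lower on another. The entry enzyme Hmgcs1 and the later enzymes Tm7sf2 and Ebp fell. N2, the negative array with the most germ cell marker signal, gave the highest negative value for 11 of the 18 genes, and N1 the lowest for 11. P2, the positive array with the most Sertoli marker signal, gave the lowest positive value for 12. N2 and P2 also had the highest 3′ to 5′ control ratios of their fractions, for Actb (2.05 and 2.33) and Gapdh (1.04 and 0.77). N2 had the highest 18S control value as well (29180). The part of these traits was not tested, and the share of all genes in the same order was not computed. Without N2 the count of called synthesis genes was 10 higher and 3 lower. Leaving out any other single array gave 3 to 7 higher and 2 to 3 lower. The count was 1 and 1 with N3 and P3 both left out, and 11 and 2 with N2 and P2 both left out. With each array centred on its median, which moves the median of all genes to 0.13 and the share of higher among called genes from 56.2% to 79.7%, 13 were higher and 3 lower.

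Hmgcs1, the cytosolic synthase that feeds the mevalonate pathway, read 13.08, 12.96 and 13.13 on N1, N2 and N3 and 12.71, 12.72 and 12.68 on P1, P2 and P3. All positive arrays were below all negative ones, by a small step. The difference was -0.35 (SE 0.05, adjusted p = 0.0100), a 1.28-fold fall, and it missed the threshold without P3 (-0.34, adjusted p = 0.0508). Another probe set was also called lower (-0.34, limma adjusted p = 0.0180 over all probe sets). The other 3 were not called, with differences of -0.41, -0.11 and -0.47.

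Mvk, mevalonate kinase, read 5.84, 5.77 and 6.10 on the negative and 7.08, 7.07 and 6.88 on the positive arrays. The fractions were well apart, with a spread in each far smaller than the step between them. Its level rose by 1.11 (SE 0.11, adjusted p = 0.00484), or 2.16-fold. Pmvk, the next kinase, overlapped between the fractions (6.57 to 6.83 against 6.17 to 6.63), with a difference of -0.30 (adjusted p = 0.189).

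Mvd, the decarboxylase that makes isopentenyl diphosphate, read 6.22, 7.68 and 6.80 on the negative and 8.23, 8.25 and 8.28 on the positive arrays. The positive arrays were nearly equal and above all negative ones, which were spread widely with N2 at the top. The difference of 1.35 (SE 0.39) had an adjusted p of 0.0590. Without N2 it was 1.74 with an adjusted p of 0.00729, and a second probe set gave 1.43 (adjusted p = 0.0218 over all probe sets).

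Idi1, the isomerase that interconverts the isoprenoid units, read 10.15, 10.40 and 10.54 on the negative and 11.51, 11.20 and 11.36 on the positive arrays. Each positive value exceeded each negative one. The rise was 0.99 (SE 0.14, adjusted p = 0.00897), or 1.99-fold; another probe set gave 0.85, not called (adjusted p = 0.0674). Fdps, farnesyl diphosphate synthase, read 10.63, 11.05 and 10.59 against 11.74, 11.63 and 11.72. It was 1.92-fold higher, by 0.94 (SE 0.14, adjusted p = 0.0109), a call lost without P3 (0.93, adjusted p = 0.0534).

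Fdft1, squalene synthase and the first enzyme committed to sterols, read 10.89, 11.36 and 11.17 on the negative and 12.14, 11.85 and 11.86 on the positive arrays. The fractions were apart, and the gene rose 1.75-fold (0.81, SE 0.15, adjusted p = 0.0190). The call was lost without N3, P1 or P3 (0.72 to 0.85). Sqle, squalene epoxidase, a rate-limiting step, read 9.74, 10.13 and 9.92 against 10.42, 10.30 and 10.43. Its rise was smaller, 0.45 (SE 0.11, adjusted p = 0.0402), and was called without N2 but not without any other array (0.36 to 0.49) nor after quantile normalization (0.42, adjusted p = 0.0507).

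Lss, which closes the sterol rings to give lanosterol, read 7.72, 8.86 and 8.27 on the negative and 9.70, 9.45 and 9.74 on the positive arrays. The positive arrays were all above the negative ones, with N2 the nearest. The rise was 2.55-fold (1.35, SE 0.32, adjusted p = 0.0337), and leaving out any array but N2 took the call away (1.07 to 1.44). A second Lss probe set pointed the other way: its difference was -0.78, called lower (adjusted p = 0.0463 over all probe sets). The direction for Lss therefore depends on the probe set, and the mean over all its probe sets, a dim one included, was 0.21 (adjusted p = 0.113).

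Lbr and Tm7sf2 encode the enzymes that can both reduce the same double bond of the lanosterol-derived sterols; LBR is also the lamin B receptor of the inner nuclear membrane. Lbr read 11.68, 12.13 and 11.79 on the negative and 12.95, 12.79 and 12.89 on the positive arrays. Tm7sf2 read 5.68, 5.79 and 5.83 on the negative and 4.10, 4.10 and 4.87 on the positive arrays, where P1 and P2 were near the middle of all probe sets. The fractions did not overlap for either gene, and their order was opposite. Lbr rose 2.01-fold (1.01, SE 0.13, adjusted p = 0.00859). Tm7sf2 fell 2.66-fold (-1.41, SE 0.24, adjusted p = 0.0152), with the call lost without N1, N3 or P1 (-1.45, -1.38 and -1.28). The size of this fall depends on the pseudocount: with 16 in place of 1 it was -0.96, still called.

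Of the demethylation steps, Nsdhl, a sterol dehydrogenase, rose. It read 9.00, 9.28 and 9.13 on the negative and 9.86, 9.49 and 9.76 on the positive arrays, apart by a small gap between N2 and P2. The change was 0.57 (SE 0.13, adjusted p = 0.0317), or 1.48-fold, and was not called without N1, N3, P1 or P3 (0.49 to 0.57). Cyp51, the lanosterol demethylase, overlapped (9.22 to 9.47 against 9.37 to 9.65; difference 0.19, adjusted p = 0.256). Msmo1, the sterol methyl oxidase, overlapped at N3 and P2 (10.47 to 10.54 against 10.51 to 10.92; 0.24, adjusted p = 0.180) and was called without P2 (0.36, adjusted p = 0.0166). A second Msmo1 probe set gave -0.72, not called. Hsd17b7, the ketosteroid reductase of this step, did not overlap (7.12 to 7.34 against 7.41 to 7.95) and had a difference of 0.39 (adjusted p = 0.156), with 0.83 and 0.66 from its other probe sets.

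Ebp, the sterol isomerase, read 9.29, 8.76 and 9.16 on the negative and 7.00, 7.51 and 6.96 on the positive arrays. Every positive array lay more than 1 log2 unit below every negative one. It fell 3.76-fold (-1.91, SE 0.22, adjusted p = 0.00639), the steepest fall of the 30 members in this fit. The Sertoli and Leydig marker sums given above fell with it, and their part was not tested. Sc5d, the sterol desaturase that follows, read 8.09, 9.01 and 8.33 against 9.37, 9.08 and 9.30, with N2 and P2 nearly touching. Its difference of 0.77 missed the threshold (adjusted p = 0.0906), passed without N2 (1.03, adjusted p = 0.00942), and was -0.51, not called, on another probe set. Dhcr7, the last reductase, overlapped (9.45 to 9.99 against 9.59 to 10.06; 0.18, adjusted p = 0.588).

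**Figure D2:**
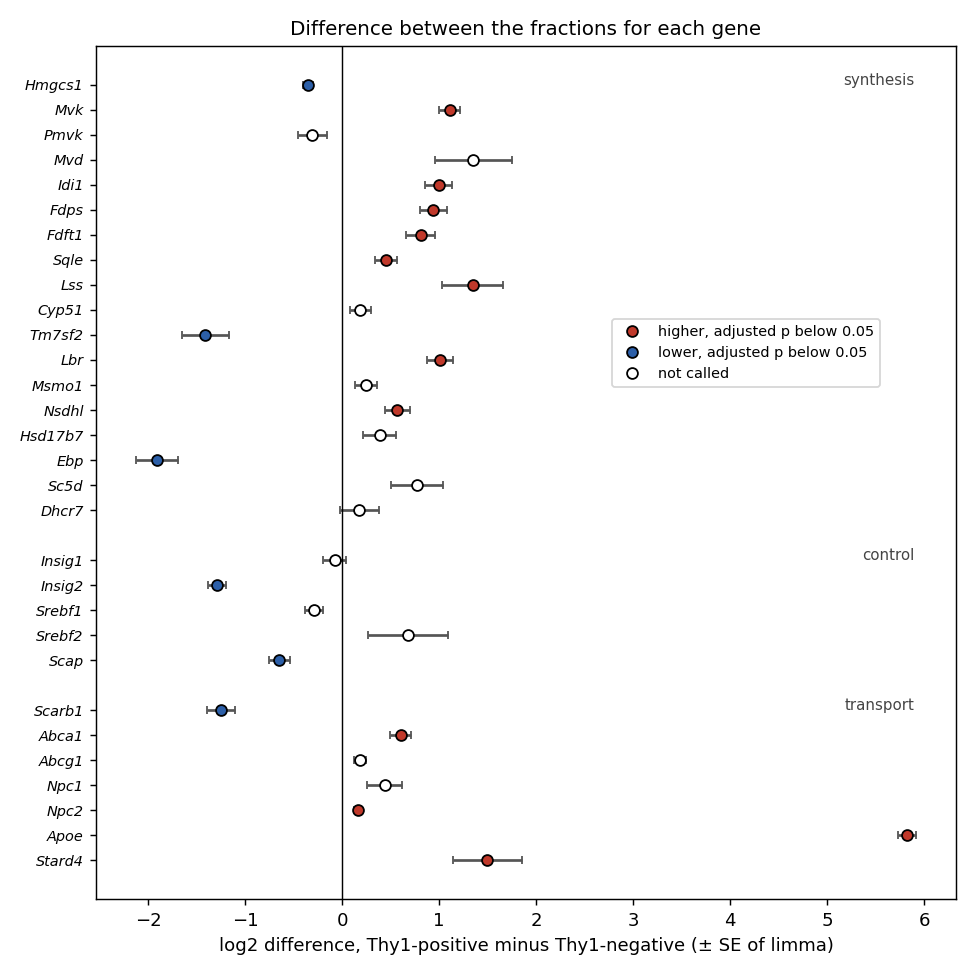
Log2 difference, Thy1-positive minus Thy1-negative, with the limma standard error as bars, for the 30 measured genes; red points rose, blue points fell and open points were not called at an adjusted p below 0.05. The called synthesis genes are 8 right and 3 left of 0, with Ebp at -1.91 and Tm7sf2 at -1.41 on the left, and Apoe stands at 5.83.

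Of the 5 SREBP control genes, 2 fell (Insig2 and Scap), 0 were called higher and 3 did not pass the test, with a median difference of -0.29. Among all genes 18.5% were called higher and 14.4% lower, so 0 higher among 5 genes is no result about the list. At an unadjusted p below 0.05 limma gave 0 higher and 3 lower. Without single arrays 1 to 3 were lower, the 1 arising without N3, P1 or P3, and 0 were lower with N3 and P3 both left out. With N2 and P2 both left out, 3 were lower. Srebf2 encodes the SREBP that chiefly drives the cholesterol genes. It read 8.56, 9.48 and 8.54 on the negative and 9.06, 10.14 and 9.42 on the positive arrays. Arrays numbered 2 were the highest in each fraction, and the ranges overlapped. The difference was 0.68 (SE 0.41, adjusted p = 0.291), while a second probe set gave 0.74 and was called (adjusted p = 0.0373 over all probe sets). Srebf1, whose products chiefly drive fatty acid genes, read 9.72, 9.71 and 9.68 against 9.52, 9.21 and 9.51. The fractions were apart by a small step of -0.29 (SE 0.09, adjusted p = 0.0798), which was called without P2 (-0.19, adjusted p = 0.00860).

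Scap, the sterol-sensing escort of SREBP, read 12.09, 11.74 and 11.82 on the negative and 11.13, 11.29 and 11.29 on the positive arrays. All positive values were lower. It fell 1.57-fold (-0.65, SE 0.11, adjusted p = 0.0153), a call lost without N3, P1 or P3 (-0.59 to -0.68). Insig2 read 9.59, 9.51 and 9.46 on the negative and 8.20, 8.42 and 8.09 on the positive arrays. The gap between the fractions was about 1 log2 unit, with tight values in each. It fell 2.44-fold (-1.29, SE 0.10, adjusted p = 0.00268); its other probe sets gave -1.72, called, and -0.22, not called. Insig1, the INSIG that is itself an SREBP target, read 9.88, 10.15 and 9.74 against 9.82, 9.81 and 9.92. These values overlapped fully (-0.07, adjusted p = 0.715), and the sign turned with arrays centred on their median (0.05) and without N2 (0.04).

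**Figure D3:**
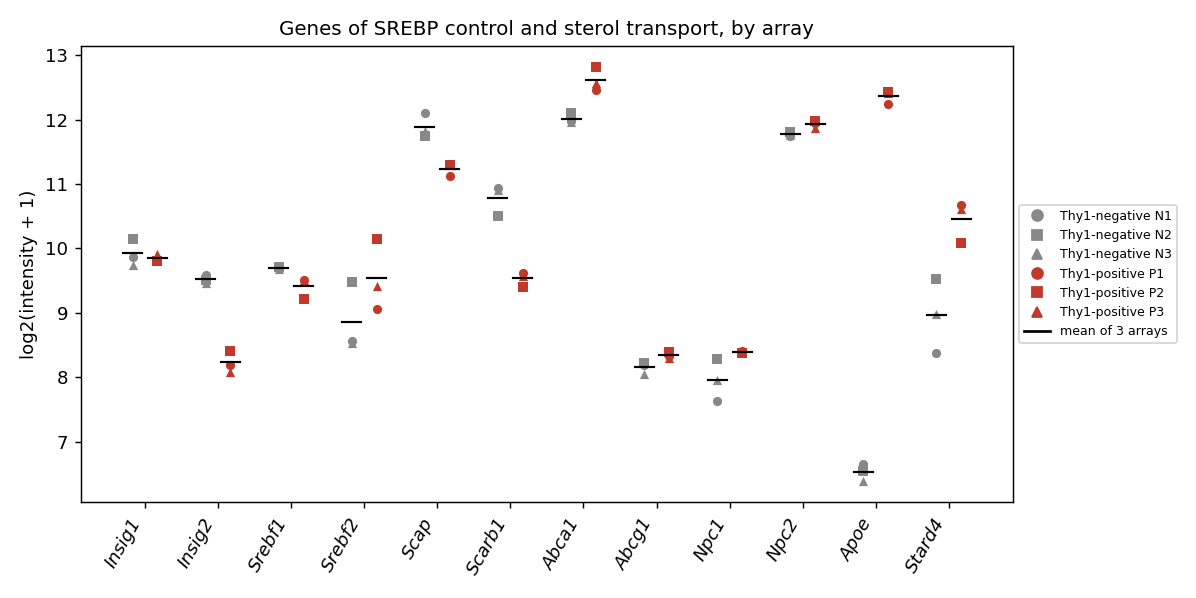
Levels of the 5 SREBP control genes and the 7 measured transport genes, as log2(intensity + 1); grey symbols are Thy1-negative and red symbols Thy1-positive arrays, with a bar at each mean. Insig2, Srebf1, Scap and Scarb1 are lower on all red points. The other measured transport genes are higher on all of them, Apoe by 5.83.

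For all 7 measured transport genes the fractions did not overlap, against 51.4% of all genes. Of the 7, 4 rose, 1 fell and 2 did not pass the test, with a median difference of 0.44. Among all genes 18.5% rose and 14.4% fell. These shares and the 51.4% include dim genes, whereas all 7 lay above the median intensity. In the fit of the 11255 genes above that median, 3771 were higher and 2876 lower, with 3 and 1 of the 7. The share of those 11255 that did not overlap was not computed. Without single arrays 1 to 5 were higher: 1 without N1 or N3, 2 without P1, P2 or P3, and 5 without N2. Apoe, the apolipoprotein that carries cholesterol out of macrophages and other cells, read 6.66, 6.56 and 6.39 on the negative and 12.24, 12.43 and 12.41 on the positive arrays. The lowest positive array was more than 5 log2 units above the highest negative one. It rose 56.8-fold (5.83, SE 0.09, adjusted p = 5.51e-05) and ranked 26 by increase among 18193 genes. The macrophage marker sums of 307 to 342 against 18680 to 25640 move with it; their part in the result was not tested.

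Stard4, which moves cholesterol between membranes inside the cell and is an SREBP target, read 8.38, 9.52 and 8.98 on the negative and 10.68, 10.09 and 10.61 on the positive arrays. The fractions were apart, with N2 highest among the negative and P2 lowest among the positive arrays, the same order as in many synthesis genes. It rose 2.83-fold (1.50, SE 0.35, adjusted p = 0.0338), with 1.28 and 1.10 on other called probe sets, and was not called without any array but N2 (1.21 to 1.68). Abca1, the pump that loads cholesterol onto lipid-poor apolipoprotein, read 11.98, 12.10 and 11.97 against 12.47, 12.82 and 12.57. All positive arrays were higher, and the rise was 1.52-fold (0.60, SE 0.11, adjusted p = 0.0159). Its other probe sets gave larger called rises of 1.24 and 1.35, and the call was lost without N1, N3 or P3 (0.58 to 0.63).

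Scarb1, the HDL receptor, was the transport gene that fell. It read 10.94, 10.50 and 10.90 on the negative and 9.63, 9.41 and 9.57 on the positive arrays. N2 was the lowest negative array and still well above the positive ones. The fall was 2.37-fold (-1.25, SE 0.14, adjusted p = 0.00636), and other called probe sets gave -1.37 and -1.20. Sertoli marker sums (138600 to 173100 against 11660 to 35870) and Leydig marker sums (5159 to 10400 against 2380 to 3767) move with it; their part was not tested.

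Npc2, the soluble protein that hands cholesterol over inside lysosomes, rose by a small step: it read 11.75, 11.80 and 11.76 against 11.95, 11.97 and 11.87. The change was 0.16 (SE 0.04, adjusted p = 0.0283), or 1.12-fold, near the 0.13 to which the median of all genes moves with median centring. It was not called without N1, N3, P1 or P2 (0.14 to 0.15) nor after quantile normalization (0.07), centring on housekeeping genes, a filter on dim genes or a variance trend. Npc1, the lysosomal membrane partner, read 7.63, 8.29 and 7.96 against 8.41, 8.38 and 8.40. The positive arrays were nearly equal; the difference of 0.44 had an adjusted p of 0.135 and was called without N2 (0.60, adjusted p = 0.0247). Abcg1, a sterol exporter of macrophages, did not overlap (8.05 to 8.23 against 8.30 to 8.40; 0.18, adjusted p = 0.0732).

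**Figure D4:**
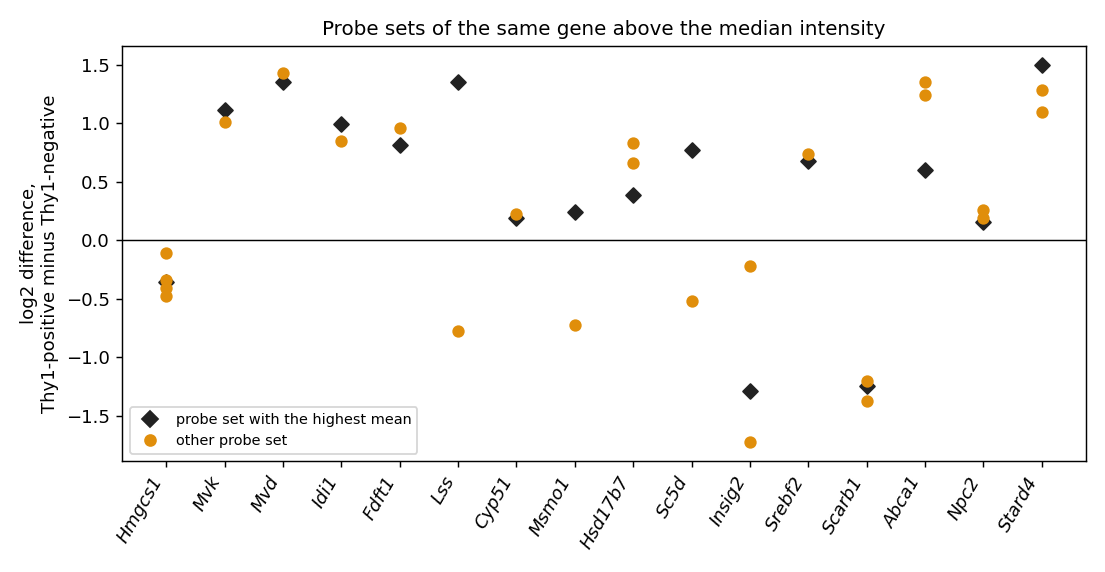
Log2 difference of each probe set above the median intensity for the 16 genes with several; black diamonds are the probe sets used and orange circles the others. The circles for Lss (-0.78), Msmo1 (-0.72) and Sc5d (-0.51) lie across 0 from their diamonds.

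The 30 genes had 65 probe sets, with several for 19 genes. Of the 35 not used above, 25 were above the median intensity. Among these, 3 had the opposite sign (Lss, Msmo1 and Sc5d), and 9 in 7 genes differed in their call from the probe set used. Calls of the other probe sets were adjusted over all 45037 probe sets, and those of the probe sets used over genes. The probe sets used for these 7 genes had the same call under either adjustment. Probe sets called in either direction made up 23.4% of all 45037, which is not a rate of differing calls. That rate was not computed for all genes. The differing calls were those of Hmgcs1 (3 probe sets), Mvd, Idi1, Lss, Insig2, Srebf2 and Npc2. Over the fits of other scalings, filters, probe set rules and single arrays left out, 7 of the 18 called members kept their call in each: Mvk, Idi1, Lbr, Ebp, Insig2, Scarb1 and Apoe. The replicate block is not among these fits, and with it Mvk, Idi1, Lbr and Ebp lost the call. Nor is the fit without both arrays numbered 3, in which Idi1, Lbr, Ebp, Insig2 and Scarb1 lost it.

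Of 55 genes measured in 5 lists beside the pathway, 8 were higher and 22 lower. Among all genes, dim ones included, 18.5% were higher and 14.4% lower. The fit of genes above the median intensity, which leaves out the dimmer neighbours, called 9 neighbours higher and 20 lower. Of all 11255 genes in that fit, 3771 were higher and 2876 lower. No difference from the cholesterol genes was tested. Without single arrays the counts among the 55 were 5 to 8 higher and 7 to 22 lower. The 5 higher arose without N1, N3, P2 or P3, and 13, 9, 13 and 7 were lower without N1, N3, P1 and P3. In the isoprenoid branch, which uses the same intermediates for dolichol, ubiquinone and prenylation, 2 rose, 3 fell and 4 of 9 did not pass, with a median of -0.02. Dhdds, which elongates the dolichol chain, rose by 1.36 (SE 0.13, adjusted p = 0.00458), and Dolk, dolichol kinase, fell by 0.51 (adjusted p = 0.00546). Coq2 of ubiquinone synthesis (-0.37) and Fnta, a prenyltransferase subunit (-0.24), also fell. Fnta was not called with centring on housekeeping genes, a filter on dim genes or a variance trend, nor without _x_at and _s_at probe sets (-0.15). Ggps1, which makes geranylgeranyl diphosphate, was higher by 0.83 (adjusted p = 0.0319) but lower without probe sets of the _x_at and _s_at kinds (-0.79, adjusted p = 0.0311).

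In SREBP processing and sterol sensing, 1 rose, 4 fell and 2 of 7 did not pass, with a median of -0.58. Both proteases that release SREBP in the Golgi fell, Mbtps2 by 1.24 (SE 0.20, adjusted p = 0.0137) and Mbtps1 by 0.63 (adjusted p = 0.0378); the mean of all Mbtps1 probe sets had the other sign (0.18, adjusted p = 0.185). Rxrb, a partner of the LXR receptors, fell by 0.58 (adjusted p = 0.0120). Mylip, a ubiquitin ligase that degrades lipoprotein receptors, read 5.80, 6.48 and 5.97 against 7.69, 7.43 and 7.68. It rose by 1.52 (SE 0.21, adjusted p = 0.00904).

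Fatty acid synthesis, the other SREBP programme, was lower for 6, higher for 2 and not called for 5 of 13 genes, with a median of -0.23 against 0.51 for cholesterol synthesis; this difference between lists was not tested. Me1, the malic enzyme that supplies NADPH, read 13.40, 12.83 and 13.20 against 9.94, 11.14 and 10.37. The fall was 2.66 (SE 0.36, adjusted p = 0.00886), with P2 the highest of the positive arrays. The stearoyl-CoA desaturases went in opposite directions: Scd2 fell by 1.87 (SE 0.20, adjusted p = 0.00552) and Scd1 rose by 1.45 (SE 0.19, adjusted p = 0.00840). Gpam, the first acyltransferase of glycerolipid synthesis, fell by 1.55 (adjusted p = 0.00583), with -0.85 as the mean of its probe sets. Acly, which makes cytosolic acetyl-CoA, rose by 0.18 (limma adjusted p = 0.0345). That step is near the 0.13 to which the median of all genes moves with median centring. Acly was not called after quantile normalization (0.15), centring on housekeeping genes, a filter on dim genes or a variance trend.

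Of 20 other uptake, storage and transport genes, 3 rose, 6 fell and 11 did not pass, with a median of -0.14. Cd36, a scavenger receptor of macrophages, read 3.41, 3.38 and 3.42 against 8.47, 8.38 and 8.74, a rise of 5.13 (SE 0.10, adjusted p = 7.28e-05). Its negative values lie below the array medians, and the difference was 3.91 with a pseudocount of 16 and 2.79 as the mean of all its probe sets. Abca7, a lipid exporter, rose by 1.96 (1.44 with a pseudocount of 16) and Vldlr, a lipoprotein receptor, by 0.88 (0.25 as the mean of its probe sets). Osbpl5, an oxysterol-binding lipid carrier, fell by 1.98. Cav1, caveolin, fell by 1.97, and Scarb2, a lysosomal relative of Scarb1, fell by 1.62. In oxysterol synthesis 0 of 6 rose and 3 fell, with a median of -0.72, and the counts at an unadjusted p below 0.05 in limma were also 0 and 3. The hydroxylase Cyp7b1 fell by 1.90 (SE 0.15, adjusted p = 0.00306; -1.08 as the mean of its probe sets), and Hsd3b7 fell by 1.50 and Cyp39a1 by 1.10.

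Of these 23 named neighbours, 12 kept their call without any single array. Ggps1, Vldlr and Cyp39a1 kept it without N2 and lost it without each of the others; Acly kept it without P1 alone and Hsd3b7 without P2 alone. Mbtps1 lost it without N1, N3, P1 or P3, Mbtps2 and Osbpl5 without N3, P1 or P3, Fnta and Scarb2 without N3 or P3, and Rxrb without P3.

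**Figure D5:**
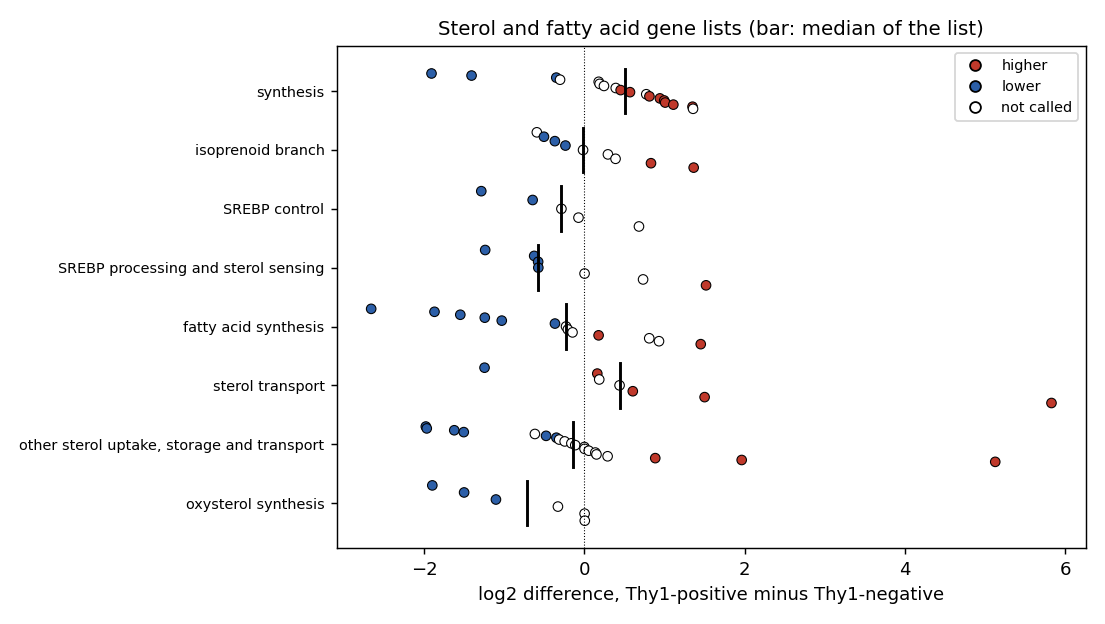
Log2 difference, Thy1-positive minus Thy1-negative, of every measured gene in the 3 cholesterol lists and 5 neighbouring lists; red points rose, blue points fell, open points were not called, and black bars mark medians. The median is 0.51 for synthesis and 0.44 for sterol transport, and lies below 0 in the other lists.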

How the data were processed

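RNA of 3 Thy1-negative and 3 Thy1-positive samples was measured on 1 Affymetrix array each. The deposited values are linear intensities, 1 for each probe set on each array. Per the submitters' processing notes the tool was GCRMA, with no version, whereas the labels describe Affymetrix software with scaling to 150 after a trim of 2%. The trimmed mean was 287 to 293 on every array, so the deposited values do not carry that scaling, and the procedure behind them is not given in the sources used. Of 45101 probe sets, 64 controls were left out; 34945 had 1 gene in the platform table, 932 several and 9160 none. Symbols were checked by Entrez identifier against RefSeq (GRCm38.p6), which updated 0; 204 probe sets had no match.

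Deposited intensities were transformed to log2(intensity + 1) without other normalization or filters. Fractions were compared with limma 3.58.1 in R 4.3.3 (lmFit and eBayes, fraction as the only term, 2-sided, Benjamini-Hochberg at 0.05 over 18193 genes, or 45037 probe sets). SDs were computed over the 3 arrays of each fraction and SEs were taken from the limma fit; the number of arrays limits the precision. Probe sets can share sequence with related genes, which was not checked here. The procedure was tested on simulated data. All members are named; in each neighbouring list the up to 3 called genes with the largest change in each direction are named, and C1qa and Thy1 for the cell types. Promoter letters were searched with a script in RefSeq windows. The members and lists were chosen with earlier results of these data known. The alternatives were quantile normalization, centring, a brightness filter, a floor, a pseudocount of 16, other probe set rules, the replicate number as a block, a variance trend and each array left out; leaving out both arrays numbered 2 or 3, and the neighbours' alternatives, were added after the data were seen.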

Additional observations from a re-analysis of the deposited data

How the results depend on the processing

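Of 480 member values under the alternative settings, 397 kept their direction and side of the threshold, 58 were no longer called, 21 became called and 4 reversed. Reversed values were Lss without _x_at and _s_at probe sets (-0.78), Msmo1 as the mean of its probe sets (-0.24), and Insig1 with arrays centred on their median (0.047) and without N2 (0.040). Insig1 also reversed without both arrays numbered 2 (0.059), a fit outside those 480. Among neighbours, Ggps1 reversed as the mean of its probe sets (-0.10) and without _x_at and _s_at probe sets (-0.79), and Mbtps1 as the mean of its probe sets (0.18). Median centring raised the count of higher genes from 3368 to 10436 over all genes, from 8 to 13 in synthesis and from 8 to 18 among the neighbours; the cause was not tested. Leaving out both arrays numbered 3 gave 149 higher and 61 lower genes, 1 and 1 in synthesis, 0 lower in SREBP control (2 at an unadjusted p below 0.05 in limma), 1 higher and 0 lower in transport (4 and 1 unadjusted), and 1 and 0 among the neighbours (7 and 13 unadjusted), with fewer samples in the fit. Leaving out both arrays numbered 2, with as few samples, gave 4349 higher and 3116 lower genes. In that fit 11 were higher and 2 lower in synthesis, and 3 lower in SREBP control. In transport 3 were higher and 1 lower, and among the neighbours 9 and 23. Leaving out single arrays gave 1350 to 4273 higher and 1163 to 3008 lower genes, 3 to 10 and 2 to 3 in synthesis, 1 to 3 lower in SREBP control, 1 to 5 higher and 1 lower in transport, and 5 to 8 higher and 7 to 22 lower among the neighbours. Mvd was also called under 7 alternatives that keep all arrays, Npc1, Sc5d, Msmo1, Cyp51, Hsd17b7 and Abcg1 under median centring. Low signal limits Tm7sf2 and Cd36, whose lower fraction lies close to the median of all probe sets or below it.

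With the replicate number as a block, 931 genes were higher and 548 lower; in synthesis 0 and 0 (7 and 3 at an unadjusted p below 0.05 in limma), in SREBP control 1 lower, in transport 1 higher and 1 lower, and among the neighbours 2 higher and 4 lower. Insig2, Scarb1 and Apoe were the members called. The deviations of same-numbered arrays from their fraction means correlated at -0.16, -0.17 and -0.04, and those of differently numbered arrays at -0.11 to 0.19. With 3 arrays per fraction, these values cannot show whether a preparation gave both fractions.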
